A study of Mus musculus with 24 samples.

Results

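The genes described here are 49 mouse genes that interferons induce. They comprise 27 effectors best known from the type I interferon response, 5 transcription factors of the pathway, 7 GTPases known for their induction by interferon gamma, and 10 genes of antigen processing and the immunoproteasome. They were chosen by name, and a probe set was taken where the platform annotation gives a member's symbol and no other. This gave 74 probe sets for 46 of the 18193 genes the arrays hold by this rule, out of 22626 probe sets on the 430A array and 22511 on the 430B array. The probe sets for Isg15 and Psme2 carry a second gene's symbol and Ifi44 had no match, so these 3 genes are not analysed here. Of the 46 genes, 39 had at least 1 probe set above the filter on low signal, the 40th percentile of each array type (a signal of about 180 on 430A and 195 on 430B). They hold 58 tested probe sets, 47 on 430A and 11 on 430B. Where a single value per gene is given, it comes from the tested probe set with the highest mean, with 430A taken first.

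Signals were measured in total RNA of whole colon from BALB/c mice aged 6 to 8 weeks. A standard diet or a diet holding 2% curcumin was crossed with a control enema or an enema of TNBS (trinitrobenzene sulfonic acid), a hapten used to set off colitis in mice. Each of the 4 groups has 3 samples, and each sample was run on one 430A and one 430B array, 24 arrays in all. The groups are standard-diet control, standard-diet TNBS, curcumin-diet control and curcumin-diet TNBS. Feeding started 2 days ahead of the enema on day 0, and the colon was taken on day 7. The RNA of 3 mice was pooled in a group. Whether a group's samples are separate pools is not stated. The p-values, standard errors and intervals therefore rest on a spread between samples that may be technical. In RNA of a whole tissue, fewer cells of a type and less RNA per cell cannot be told apart.

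Type I interferons signal through a receptor made of Ifnar1 and Ifnar2 to a complex that holds Stat2 and Irf9 and binds the interferon-stimulated response element. Interferon gamma signals through Ifngr1 and Ifngr2 to the gamma-activated site in promoters, and it raises Irf1, the immunity-related GTPases and the genes that load peptides on class I molecules. In the colon, epithelium and resident macrophages hold a basal interferon programme, and T cells are a source of interferon gamma in TNBS colitis.

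The promoters are shown because both response elements can be read in them. RefSeq promoter windows of the GRCm38.p6 build, 250 bases before to 50 bases after the start of the gene, were matched by symbol for 39 of the 49 members. The sequence GAAANNGAAA, a core of the interferon-stimulated response element searched on both strands, was found in 16 of these 39 genes (41%) and in 3.99% of all 27025 genes with a window. TTCNNNGAA, a core of the gamma-activated site, was found in 13 of 39 members (33.3%) and in 9.55% of all genes. Matches in tandem share bases, as in Oas1a. A match describes letters in the window, not a bound site. The windows of 7 members follow, 60 bases each, 5′ to 3′ on the strand of the gene, with matches to either sequence in capitals.
Ifit1, chr19:34640764-34640823 (+): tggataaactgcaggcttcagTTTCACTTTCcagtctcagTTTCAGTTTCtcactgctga
Oas1a, chr5:120907526-120907585 (-): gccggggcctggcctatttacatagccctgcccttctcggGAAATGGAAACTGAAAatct
Irgm1, chr11:48871421-48871480 (-): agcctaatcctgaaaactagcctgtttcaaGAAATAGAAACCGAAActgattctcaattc
Igtp, chr11:58199496-58199555 (+): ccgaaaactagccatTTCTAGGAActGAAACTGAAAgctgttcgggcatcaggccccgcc
Irgm2, chr11:58214887-58214946 (+): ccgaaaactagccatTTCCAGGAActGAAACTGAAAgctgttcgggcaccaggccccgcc
B2m, chr2:122147522-122147581 (+): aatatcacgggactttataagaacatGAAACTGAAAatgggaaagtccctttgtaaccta
Irf1, chr11:53769899-53769958 (+): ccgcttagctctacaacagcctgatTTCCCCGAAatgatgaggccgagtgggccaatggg

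Ifit1 carries 2 matches to the response element on the opposite strand, and Oas1a and Irgm1 each carry 2 in tandem directly upstream of the start. Igtp and Irgm2, which are neighbours on chromosome 11, carry both elements in the same order, and their windows are identical at 58 of 60 bases. The differences, counted from 1 at the 5′ end of the printed window with the base of Igtp first, are T19C and T49C, and the former lies within the gamma-activated match. B2m holds a single match to the response element and Irf1 a single match to the gamma-activated site. Among the gamma-induced GTPases 5 of 6 genes with a window hold GAAANNGAAA, among the type I effectors 8 of 20, among the transcription factors 1 of 5 and among the antigen-processing genes 2 of 8. Bst2, Eif2ak2, Igtp, Irgm2 and Oas1a hold both elements, 5 of 39 members against 0.54% of all genes.

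The arrays also differed in ways that bear on the comparisons of diet and enema. On 430A the first principal component (31.95% of the variance) split the samples 6 and 6, and each side (named array set 1 or 2 below) has 1 or 2 samples of every group. Replicates 2 and 3 of curcumin-diet TNBS were outliers on 430B, more than 5 median absolute deviations out on its first component, so 430B values of this group rest largely on them. Both belong to the same group, so what set them apart cannot be told from diet and enema. Centring each array on its median moved the median difference of all 430B probe sets by -0.23 for TNBS on curcumin, by -0.20 for the diet with TNBS and by -0.27 for their interaction. A further fit, the array-set fit, models the array set on 430A and omits the 2 outlying arrays of 430B. On 430B this leaves replicate 1 alone for curcumin-diet TNBS, and the spread then comes from the other groups. Transcripts of pancreatic acinar cells, for which 8 of 10 listed markers were tested, summed to between 1024 and 111390 over the samples, with 42025 the lowest value in standard-diet TNBS and 1024 to 1283 the lowest values of the other groups. The part of this tissue in the results below was not tested. Markers of colon epithelium, with 12 of 13 tested on 430A, summed to between 78583 and 101430 and overlapped in all 4 groups.

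**Figure D1:**
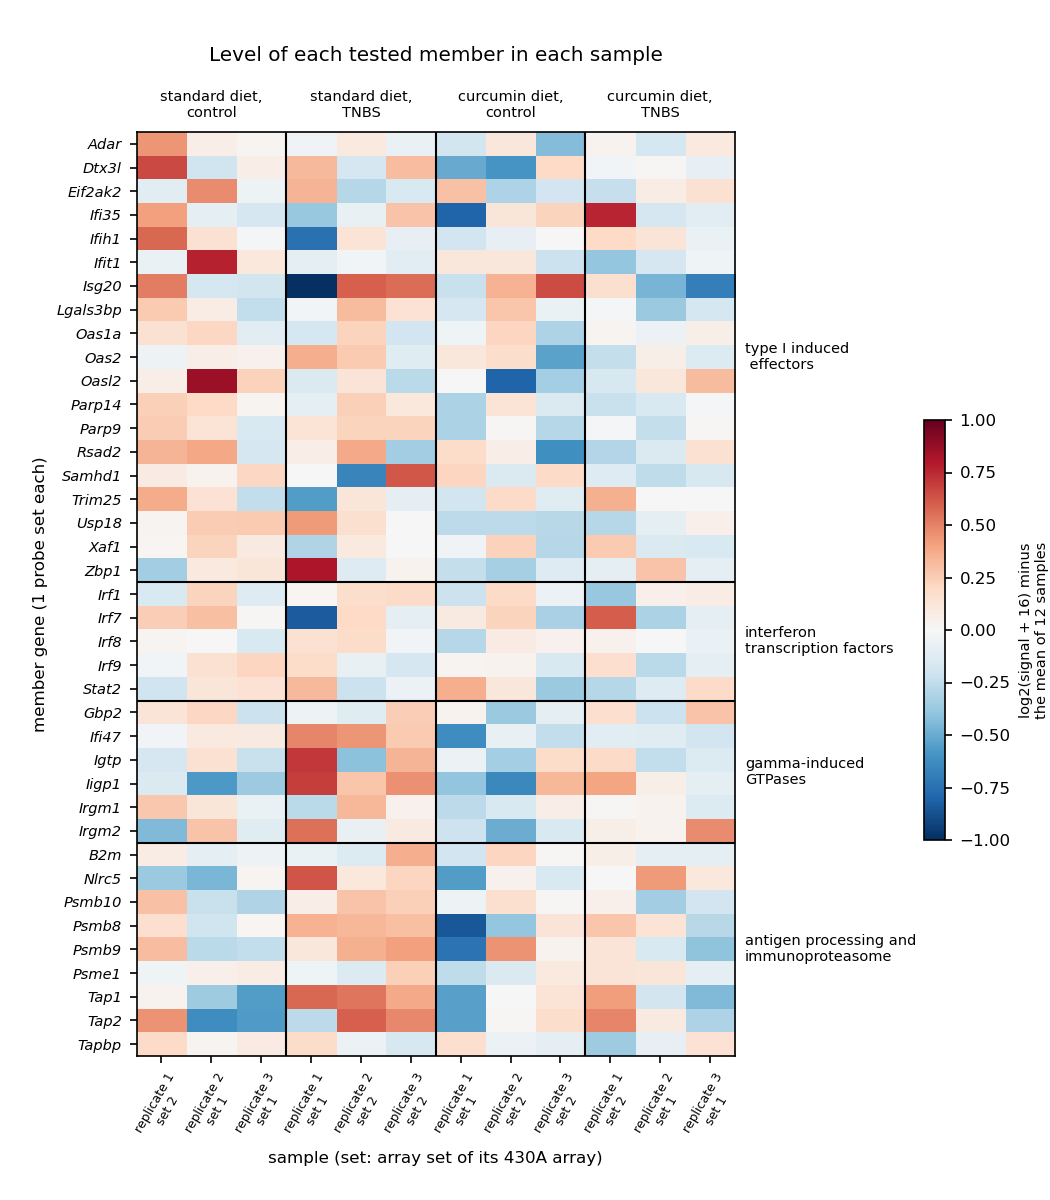
Log2(signal + 16) of each of the 39 tested members (rows, 1 probe set each, grouped by list) in each of the 12 samples (columns) minus the gene's mean over the samples, drawn from -1 to 1 with values beyond at the end of the scale; Dtx3l, Xaf1 and Nlrc5 come from 430B, all others from 430A. Tap1 and Ifi47 are above their mean in all 3 standard-diet TNBS samples, and Isg20 varies within the groups.

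Of the 58 tested probe sets, 0 passed an adjusted p under 0.05 in any of the 5 contrasts (limma, Benjamini-Hochberg over all probe sets of an array type), and 0 passed in the array-set fit. In that fit 0.236% of all probe sets passed for TNBS on the standard diet, 0.00739% for TNBS on curcumin, 0% for the diet with the control enema, 0.122% for the diet with TNBS and 0.00369% for the interaction. On the spread between these samples, which may be technical, most intervals lay within 2-fold. They need not bound differences between mice. For TNBS on the standard diet the 95% interval lay within 2-fold in either direction for 33 of 39 genes, for TNBS on curcumin for 36, for the diet with the control enema for 37 and for the diet with TNBS for 36. No gene-level estimate exceeded 2-fold. The genes whose interval reached 2-fold on the standard diet were Iigp1, Irf7, Nlrc5, Oasl2, Tap1 and Tap2. The standard error of a log2 difference had a median of 0.21 and ran from 0.13 to 0.42, the highest for Isg20, an exonuclease that degrades RNA. Isg20 followed the array set. Its signals were 459, 279 and 278 in standard-diet control, 140.1, 489 and 477 in standard-diet TNBS, 270, 408 and 510.1 in curcumin-diet control and 357, 226 and 192 in curcumin-diet TNBS. All 6 samples of array set 2 lay above all 6 of set 1. Without overlap, 2 of 47 member probe sets on 430A were higher in set 2 (Isg20 and Ifi35) and 2 were lower (one of 2 each of Eif2ak2 and B2m), against 4.23% and 8.52% of all probe sets. Elsewhere a share of all probe sets pools both array types unless 1 is named, while the member probe sets are mostly on 430A.

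What TNBS colitis changed by day 7 without curcumin is read from the standard-diet groups. Genes of antigen processing and some gamma-induced GTPases had higher signals after TNBS, by up to 1.78-fold, while most type I effectors stood slightly lower. The clearest members were Iigp1, an immunity-related GTPase that acts on the vacuoles of intracellular parasites, and Tap1, a subunit of the peptide transporter for class I loading. None of these differences passed the threshold: 0 of 58 member probe sets were called, as against 0.00739% of all 27081. At an unadjusted p under 0.05 there were 5 of 58, against 7.27% of all (9.32% on 430A and 5.21% on 430B). With array weights in limma, Iigp1 alone was called (adjusted p = 0.0485), where 0.827% of all probe sets were.

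The signal of Iigp1 was 566, 416 and 485 in the 3 standard-diet control samples and 1024, 762 and 868 in the 3 TNBS samples. All TNBS samples lay above all controls, with a log2 difference of 0.84 ± 0.23 (SE, adjusted p = 0.221), 1.78-fold. It was 0.78 ± 0.23 in the array-set fit (adjusted p = 0.146), and 1.16 and 0.51 within array sets 1 and 2. Ifi47, a GTPase of the same family, had signals of 372, 409 and 406 in the controls and 540.4, 523 and 459 after TNBS. These groups also did not overlap, and the log2 difference was 0.34 ± 0.16 (adjusted p = 0.527). Igtp, which controls the loading of such GTPases on vacuoles, was measured at 421, 528 and 404 in the controls and 782, 353 and 605 after TNBS. Its highest and its lowest sample were both in the TNBS group, and the log2 difference was 0.29 ± 0.25 (adjusted p = 0.796). Its neighbour Irgm2, with the near-identical promoter window, had a difference of 0.28 ± 0.23, and Irgm1, a regulator of the same family and of autophagy, one of -0.07 ± 0.17. Over the 6 tested GTPases, 4 differences lay above 0 and 2 below, with a median of 0.29 against -0.01 over all 12911 genes. The lowest and highest medians with 1 sample left out were 0.09 and 0.39.

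Among the antigen-processing genes, Tap1 was measured at 349.8, 264 and 227 in the controls and 518, 502 and 449.9 after TNBS. Its groups did not overlap, with a log2 difference of 0.79 ± 0.25 (adjusted p = 0.292), 1.73-fold; it was 0.65 ± 0.19 in the array-set fit (adjusted p = 0.133), and 1.03 and 0.42 within the sets. The other 3 probe sets of Tap1 were below the filter. Tap2, the second subunit of the transporter, gave 340.3, 154 and 160.3 in the controls and 202, 379 and 347 after TNBS. These values overlap, and the difference of 0.52 ± 0.34 was 0.26 ± 0.17 in the array-set fit. Nlrc5, the transactivator of class I genes, measured on 430B, had signals of 325, 306 and 434 against 665, 458 and 496. All 3 TNBS samples were higher, by 0.58 ± 0.25 (adjusted p = 0.902).

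The 3 catalytic subunits of the immunoproteasome had smaller differences. Psmb8 had signals of 487, 374 and 437 in the controls and 554, 546 and 535 after TNBS, without overlap, a difference of 0.33 ± 0.23 (adjusted p = 0.732). Psmb9 differed by 0.36 ± 0.27 and Psmb10 by 0.28 ± 0.16, with overlap in both. Within array sets 1 and 2 the differences were 0.44 and 0.15 for Psmb8, 0.37 and 0.07 for Psmb9, and 0.33 and -0.03 for Psmb10. Set 2, with 2 samples of standard-diet TNBS and 1 of standard-diet control, was higher than set 1 in these genes. The log2 excess was 0.56 for Psmb9, 0.35 for Psmb10, 0.27 for Psmb8, 0.74 for Tap2 and 0.50 for Tap1. The gene-level probe sets of B2m (0.20) and Psme1 (0.05) were higher there too, and that of Tapbp lower (-0.18). Psmb5, the constitutive counterpart of Psmb8, differed by 0.27 ± 0.17 on 430A and by 0.45 ± 0.19 on 430B, where the same probe set is also present. Psme1, a subunit of the proteasome activator, differed by -0.01 ± 0.13, and B2m, the light chain of class I molecules, by 0.08 ± 0.14. The other tested probe set of B2m went the other way, with mean signals of 6840 in the controls and 6197 after TNBS and overlap. Of the 9 tested antigen-processing genes, 7 lay above 0 and 2 below; the median was 0.33, or 0.17 in the array-set fit, and 0.23 to 0.46 with 1 sample left out; 6 to 8 of the 9 lay above 0 with either other scaling.

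Of the transcription factors 2 of 5 lay above 0, or 3 of 5 with quantile normalization or arrays centred on their median. Irf1, a gamma-induced activator, differed by 0.15 ± 0.16, and Irf8, a factor of myeloid cells, by 0.14 ± 0.13. Irf7, which drives type I interferon genes, was measured at 1066, 1106 and 905 in the controls and 496, 1031 and 839 after TNBS. Its difference of -0.43 ± 0.28 (adjusted p = 0.709) rested largely on TNBS replicate 1 and was -0.13 without it.

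Of the 19 type I effectors, 14 stood lower after TNBS and 5 higher, with a median of -0.12 (13 of 19 lower with arrays centred on their median). Ifih1, a sensor of double-stranded RNA, had signals of 1623, 1205 and 1066 in the controls and 640, 1192 and 1022 after TNBS. The groups overlapped, with a difference of -0.47 ± 0.21 (adjusted p = 0.531), which was -0.60 ± 0.15 in the array-set fit (adjusted p = 0.0967) and -0.21 without TNBS replicate 1. Oasl2, an oligoadenylate synthetase-like protein, gave 288, 511 and 325 and 247, 301 and 225, a difference of -0.48 ± 0.26 (adjusted p = 0.625). Ifit1, which binds foreign RNA, gave 419, 759 and 472 and 410.1, 430.3 and 404. Control replicate 2 was the highest sample of both Oasl2 and Ifit1, and without it the differences were -0.24 and -0.10. Over all members, 6 of 58 probe sets were higher without overlap (against 6.9% of all) and 0 were lower (against 7.56%). The 6 were those of Iigp1, Ifi47, Tap1, Psmb8 and Nlrc5 and 1 of 4 of Samhd1, an enzyme that depletes nucleotides. The other 3 of Samhd1 overlapped.

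Markers of macrophages and neutrophils were also higher beside these GTPase and antigen-processing values, though 0 of them passed the threshold. The summed signal of 9 of 11 macrophage markers on 430A was 7898 to 9587 in standard-diet control and 11595 to 13336 in standard-diet TNBS, and that of 4 of 9 neutrophil markers was 734 to 841 and 1406 to 2300. Neither pair of ranges overlapped. At the gene level 9 of 10 macrophage markers and 4 of 4 neutrophil markers lay above 0, with medians of 0.34 and 1.10. Of 12 markers of T and NK cells 1 passed the filter, with a difference of -0.09. Of the dendritic cell markers 4 of 5 lay above 0, with a median of 0.14. The sum of 3 of 6 adipocyte markers was lower without overlap, 6845 to 7141 in the controls and 2654 to 5809 after TNBS, with 3 of 3 genes below 0. The sum of 5 of 8 markers of B and plasma cells on 430A was also lower, 10062 to 11784 and 8106 to 9510, but at the gene level 4 of 6 lay above 0, with a median of 0.08. The part of these cells in the member values was not tested.

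**Figure D2:**
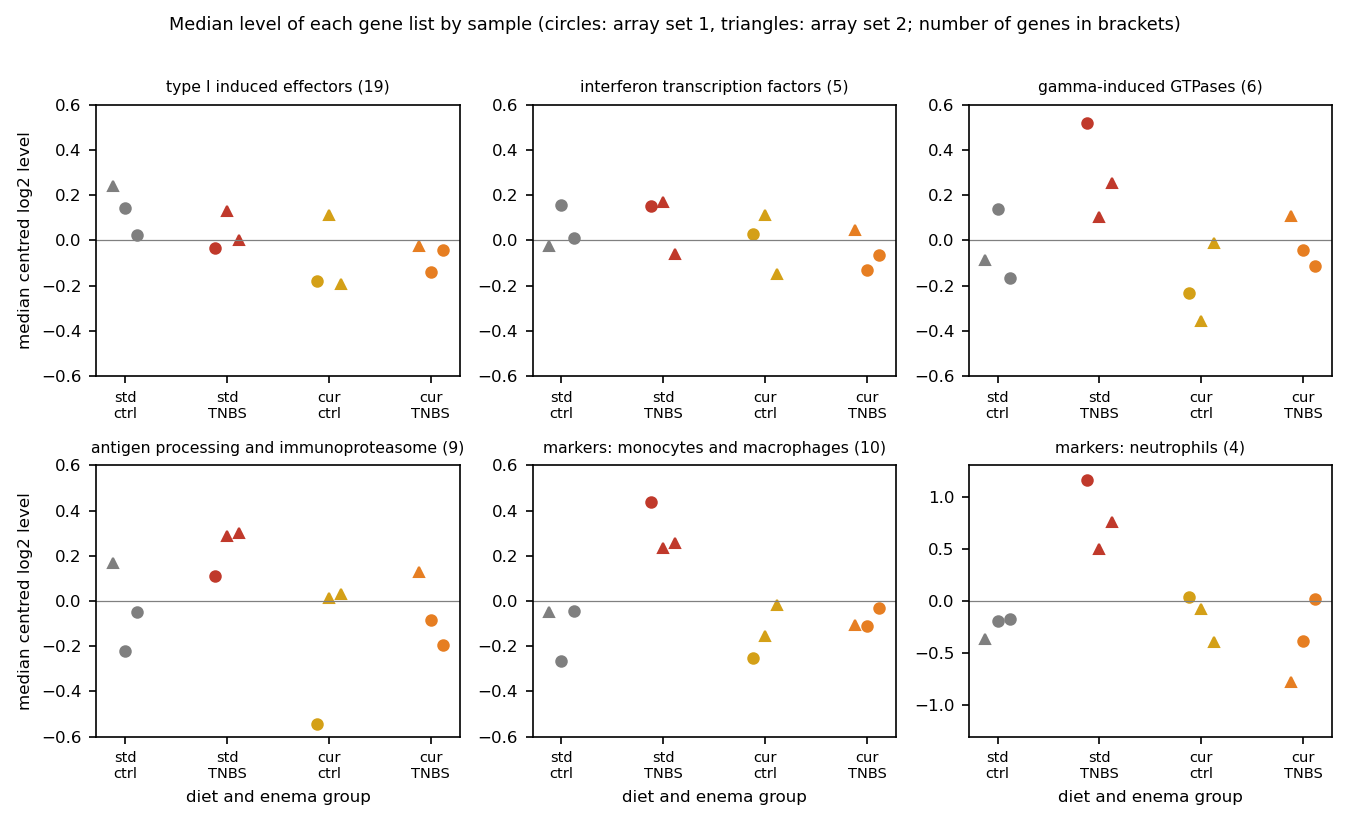
Median over the genes of a list (number in brackets) of log2(signal + 16) minus each gene's mean, on the y axis (its range is wider for neutrophils), in each sample of the 4 groups (std, standard diet; cur, curcumin diet; ctrl, control enema); circles are array set 1 and triangles array set 2. The macrophage and neutrophil lists are above 0 in all 3 standard-diet TNBS samples, and so are the GTPase and antigen-processing lists, while the type I effectors lie between -0.19 and 0.24 in every sample.

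The ligands and receptors of the pathway were looked up by name. Of 7 ligand genes 5 were on the arrays and 1, Ifnb1, was tested, with signals of 95.6 to 446 over all samples and overlap in every contrast. Ifng was below the filter at 37.6 to 97.8 over all samples. Of the 6 receptor genes all were tested and 0 passed in any contrast. Ifnar1 on 430A differed by 0.02 ± 0.20 and Ifngr1 by 0.13 ± 0.14 for TNBS on the standard diet. Of the kinases, Stats and regulators (10 of 12 tested), nucleic acid sensors (9 of 11), class I molecules and loading factors (6 of 8) and constitutive proteasome subunits (11 of 11), 0 genes passed in any contrast by their gene-level probe set. Their medians for TNBS on the standard diet were 0.02, 0.07, 0.14 and 0.19. These medians hide wide differences of Socs3, a feedback inhibitor of cytokine signalling, named after its values were seen. Its signals were 148, 338 and 163 in standard-diet control, 1634, 333 and 1139.8 in standard-diet TNBS, 373, 198 and 440 in curcumin-diet control and 169, 180 and 338 in curcumin-diet TNBS. Standard-diet TNBS replicates 1 and 3 were high and replicate 2 was not. The log2 difference was 2.00 ± 0.52 for TNBS on the standard diet (adjusted p = 0.182) and -1.90 ± 0.52 for the diet with TNBS (adjusted p = 0.212). A further probe set of the kinase Tyk2, on 430B, passed for the diet with TNBS at 2.32 ± 0.46 (adjusted p = 0.0328), with 104, 166 and 201 against 412, 1006 and 1330.4. The 2 highest of these are the outlying arrays, and the gene-level probe set on 430A differed by 0.03 ± 0.15. The chemokine Cxcl9, a target of interferon gamma, was below the filter on both array types. On 430B its signals were 15.1, 12.6 and 18.3 in standard-diet control, 79.7, 68.3 and 115 in standard-diet TNBS, 18.3, 32.8 and 33.9 in curcumin-diet control and 10.5, 58.7 and 28.3 in curcumin-diet TNBS. The 3 standard-diet TNBS samples were the highest, and no test was made at this level. On 430A all standard-diet TNBS samples were above the controls as well, at 311, 117 and 123 against 77.4, 94.4 and 65.5. Cxcl10, with signals of 67.9 to 175, was also below the filter and overlapped.

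The same question was asked in mice fed curcumin. The differences were small: all 6 gamma-induced GTPases lay above 0, with a median of 0.20, but so did 13 of 19 type I effectors (median 0.07) and 5 of 9 antigen-processing genes (median 0.07). With quantile normalization, with arrays centred on their median and in the array-set fit, 5 of the 6 GTPases lay above 0. Of the antigen-processing genes 7 of 9 lay above 0 in the array-set fit, with a median of 0.18 (0.17 on the standard diet in that fit), and 4 of 9 with array weights, with a median of -0.06. With array weights 8 of 19 type I effectors lay above 0. Again 0 of 58 member probe sets were called, against 0.203% of all, and 4 had an unadjusted p under 0.05, against 13.3%. The latter share was 2.75% on 430A, where 47 of the 58 lie, and 24% on 430B. Those 4 were further probe sets, not the gene-level ones, of Ifi35, Adar, Gbp2 and Parp14, 3 of them on 430B.

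Irgm2 was measured at 246, 198 and 256 in curcumin-diet control and 298, 294 and 402 in curcumin-diet TNBS. The groups did not overlap, with a difference of 0.47 ± 0.23 (adjusted p = 1). Iigp1 had signals of 472, 396 and 793 and 829, 653 and 587, which overlap because of control replicate 3; its difference was 0.36 ± 0.23. Psmb8 gave 232, 327 and 473 and 527, 476 and 354, a difference of 0.42 ± 0.23, with control replicate 1 the lowest sample. Tap1 differed by 0.07 ± 0.25, Ifi47 by 0.17 ± 0.16 and Nlrc5 by 0.40 ± 0.25 (0.22 ± 0.35 in the array-set fit). Oasl2, which had been lower after TNBS on the standard diet, stood 0.47 ± 0.26 higher here (adjusted p = 1). Without overlap, 3 of 58 probe sets were higher (Irgm2, Zbp1, a sensor of nucleic acids, and 1 of 2 of Gbp2) and 1 was lower (1 of 3 of Adar), against 7.16% and 6.53%. On 430A alone these shares were 3.42% and 3.67%, and on 430B 10.9% and 9.41%. The macrophage markers summed to 8162 to 9950 in curcumin-diet control and 8770 to 10092 in curcumin-diet TNBS, and the neutrophil markers to 703 to 965 and 552 to 917, so both overlapped.

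Several second probe sets on 430B rested on the 2 outlying arrays. One for Parp14, an ADP-ribosyltransferase, read 221, 318 and 307 in curcumin-diet control and 223, 709.7 and 1144 in curcumin-diet TNBS. The high values are the outlying replicates 2 and 3. The difference was 0.99 ± 0.44 with them and -0.30 without, where replicate 1 alone is left in the group. The probe set of Parp14 on 430A differed by -0.02 ± 0.15. One for Ifi35 on 430B had -0.53 ± 0.19 with the outlying arrays and -0.17 without, where the one on 430A had 0.31 ± 0.32. Leaving out replicate 1, so that the outlying arrays alone stand for the group on 430B, called the Parp14 and Ifi35 probe sets (2 of 58, against 10.1% of all). Array weights called the same 2, against 11% of all.

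What curcumin changed in the absence of TNBS is read from both control groups. Most members stood slightly lower on curcumin: 30 of 39 genes lay below 0 and 9 above, where all genes split into 6473 below and 6438 above. The type I effectors showed this most, with 18 of 19 below 0 (19 of 19 in the array-set fit, 16 of 19 with arrays centred on their median) and a median of -0.20. With 1 sample left out 15 to 18 lay below 0, and the median ran from -0.32 to -0.12. These genes share the same samples. Their median centred level was 0.24, 0.14 and 0.03 in standard-diet control and -0.18, 0.11 and -0.19 in curcumin-diet control, which overlap. Of 58 probe sets 0 were called, against 0.00369% of all (0.00739% with array weights). At an unadjusted p under 0.05 there were 4, all lower, against 2.09% of all lower (1.59% on 430A and 2.58% on 430B) and 3.61% in either direction.

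Oasl2 had signals of 288, 511 and 325 on the standard diet and 274, 151 and 214 on curcumin. The groups did not overlap, and the difference was -0.76 ± 0.26 (adjusted p = 0.998), with -0.55 and -0.63 within the array sets. Usp18, a protease that removes ISG15 from proteins and damps type I signalling, gave 252, 298 and 299 and 204, 204 and 202. It too did not overlap, with a difference of -0.44 ± 0.18 (adjusted p = 0.998), and -0.52 and -0.29 within the sets. Ifi47 gave 372, 409 and 406 and 242, 361 and 318, also apart, with -0.36 ± 0.16 (adjusted p = 0.998). Dtx3l, a ubiquitin ligase, differed by -0.47 ± 0.23 and its partner Parp9 by -0.28 ± 0.14, with overlap in each. Adar, which edits adenosines in double-stranded RNA, differed by -0.35 ± 0.17 on 430A and by -0.21 ± 0.14 and 0.27 ± 0.20 on 430B, so its probe sets disagree in sign. Without overlap 5 of 58 were lower (Oasl2, Usp18, Ifi47 and 1 probe set each of Adar and Gbp2) and 0 higher, against 4.65% and 3.68%.

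The 9 antigen-processing genes split into 5 above and 4 below, with a median of 0.03 (4 above and 5 below with quantile normalization), and Tap1 differed by 0.16 ± 0.25. The GTPases split into 2 above and 4 below, with a median of -0.19. Irf1 and Irf8 differed by -0.01 ± 0.16 and -0.01 ± 0.13. Psmb8 had a difference of -0.37 ± 0.23 (-0.47 ± 0.19 in the array-set fit). Its curcumin replicates 1 and 2, at 232 and 327, lay below all standard-diet controls, and replicate 3, at 473, overlapped them. Macrophage sums overlapped between these groups, as did those of neutrophils. Markers of pancreatic acinar cells were lower on curcumin in 8 of 8 genes, with a median of -2.42, and those of colon epithelium lay above 0 in 10 of 13, with a median of 0.12; the part of these tissues in the member values was not tested.

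**Figure D3:**
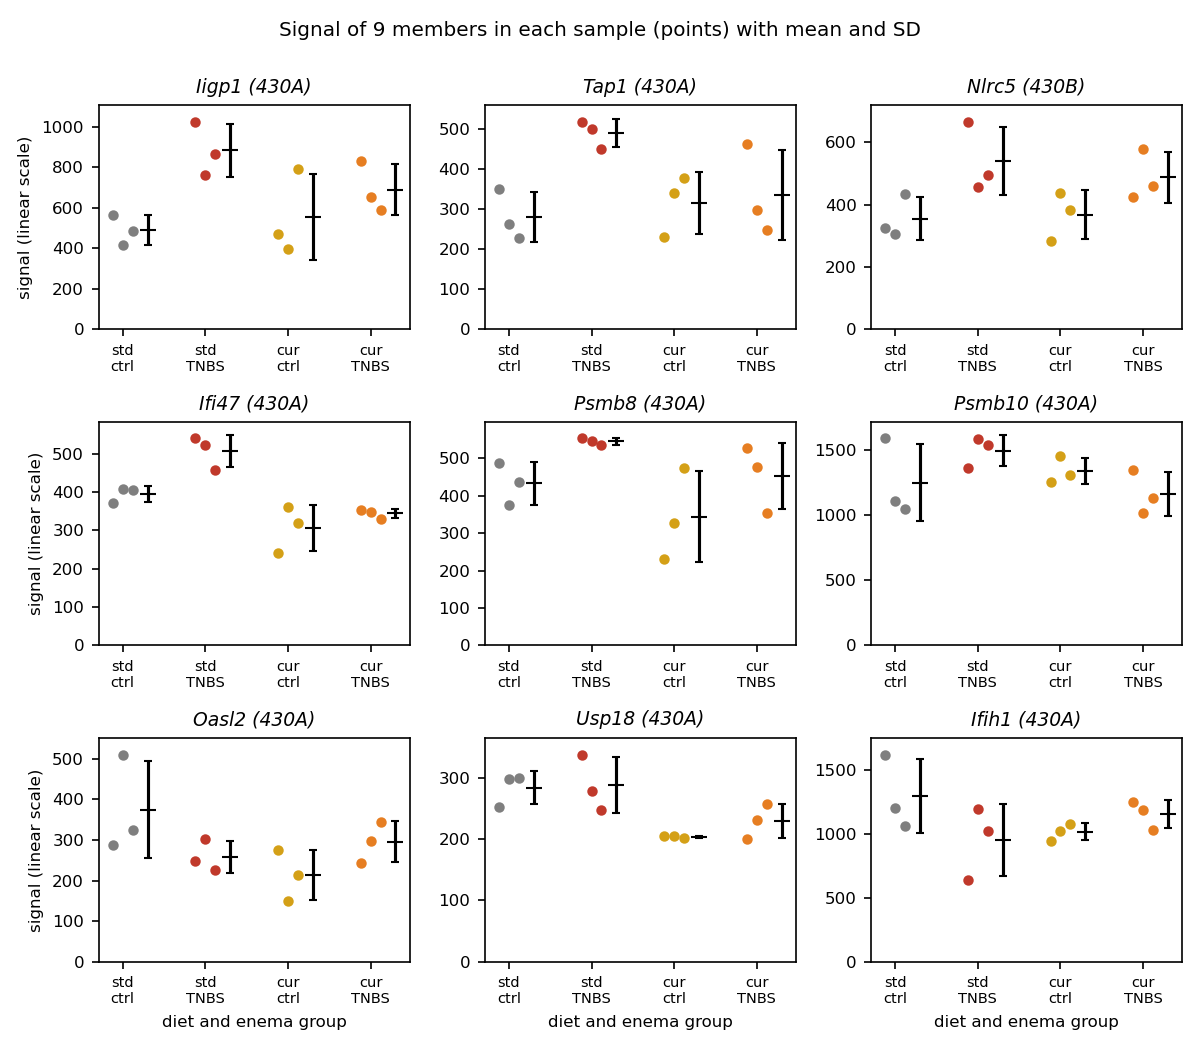
Deposited signal (linear scale, y axis from 0) of 9 members in each of the 3 samples of the 4 groups (points; std, standard diet; cur, curcumin diet; ctrl, control enema), with the group mean and SD beside the points (n = 3). The standard-diet TNBS samples of Iigp1, Tap1, Nlrc5, Ifi47 and Psmb8 lie above all standard-diet controls, and the curcumin-diet control samples of Oasl2, Usp18 and Ifi47 below them.

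What curcumin changed in colitis is read from both TNBS groups. Antigen-processing genes and Ifi47 had lower signals on curcumin: 8 of 9 antigen-processing genes lay below 0, with a median of -0.18, and all 3 immunoproteasome subunits were among them. Also below 0 were 8 of 11 constitutive proteasome subunits (median -0.13) and 5 of 6 class I molecules and loading factors (median -0.08). In the array-set fit these medians were, in the same order, -0.17, -0.02 and -0.04. Over all members 29 of 39 lay below 0, with a median of -0.13 against 0.00 over all genes. Of 58 probe sets 0 were called, against 0.805% of all. At an unadjusted p under 0.05 there were 8 (1 higher, 7 lower), against 16.9% (10.2% on 430A and 23.6% on 430B). With array weights 11 were called, against 17.6% of all; these include Ifi47, Tap1, Psmb10, Lgals3bp and Parp9, and the remaining 6 are further probe sets of Gbp2, Parp14, Adar, Dtx3l and Ifi35.

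Ifi47 had signals of 540.4, 523 and 459 on the standard diet and 353, 349 and 331 on curcumin. All curcumin samples lay below all standard-diet samples, with a difference of -0.54 ± 0.16, 0.69-fold (adjusted p = 0.242); it was -0.51 ± 0.15 in the array-set fit (adjusted p = 0.137), and -0.64 and -0.45 within the sets. With array weights its adjusted p was 0.0229. Iigp1 gave 1024, 762 and 868 and 829, 653 and 587, which overlap, and differed by -0.36 ± 0.23; within array set 1 the difference was -0.71 and within set 2 it was 0.03. Igtp differed by -0.28 ± 0.25, Irgm1 by -0.06 ± 0.17 and Irgm2 by -0.00 ± 0.23. Of the 6 GTPases 5 lay below 0 (4 in the array-set fit and with either other scaling), with a median of -0.17.

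Tap1 gave 518, 502 and 449.9 on the standard diet and 462, 299 and 247 on curcumin. The first curcumin sample lies among the standard-diet values and the other 2 lie below them, with a difference of -0.57 ± 0.25 (adjusted p = 0.458, or 0.0325 with array weights). It was -0.89 within array set 1 and -0.04 within set 2. Psmb10 gave 1361, 1587 and 1538 and 1347, 1016 and 1133. All curcumin samples were lower, by -0.36 ± 0.16 (adjusted p = 0.484, or 0.0184 with array weights), with -0.34 and -0.21 within the sets. Psmb8 also did not overlap, at 554, 546 and 535 against 527, 476 and 354, a difference of -0.28 ± 0.23, and Psmb9 differed by -0.43 ± 0.27 with 493, 586 and 609 against 499, 408 and 340.2. Within array sets 1 and 2 the differences were -0.42 and -0.04 for Psmb8 and -0.39 and -0.25 for Psmb9. B2m differed by -0.10 ± 0.14, and Tap2 by -0.18 ± 0.34. The other tested probe set of B2m was higher on curcumin, with mean signals of 6197 on the standard diet and 6718 on curcumin and overlap. The constitutive Psmb5 differed by -0.21 ± 0.17 on 430A and, with the outlying arrays, by -0.74 ± 0.19 on 430B (adjusted p = 0.0608).

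Of the 19 type I effectors 12 lay below 0 and 7 above, with a median of -0.13. Lgals3bp, a secreted glycoprotein, gave 1849.7, 2353 and 2089.5 and 1867, 1457 and 1672, with a difference of -0.33 ± 0.17 (adjusted p = 0.54) and overlap by 1 sample. Parp9 gave 946, 999.8 and 1001 and 851, 724 and 865, without overlap, a difference of -0.27 ± 0.14 (adjusted p = 0.563). Ifih1 and Ifit1 differed by 0.32 ± 0.21 and -0.12 ± 0.20, and Isg20 by -0.35 ± 0.42. Among the factors, Irf1 differed by -0.21 ± 0.16, Irf8 by -0.11 ± 0.13 and Irf7 by 0.31 ± 0.28, the last 0.01 without standard-diet TNBS replicate 1, 0.04 without curcumin-diet TNBS replicate 1 and -0.11 with array weights. Without overlap, 8 of 58 probe sets were lower and 0 higher, against 9.89% and 10.4% of all. On 430A alone these shares were 7.98% and 8.18%, and on 430B 11.8% and 12.7%. The 8 were those of Ifi47, Psmb8, Psmb10 and Parp9, 1 of 2 of Rsad2, an antiviral enzyme, and 1 each of Adar, Dtx3l and Ifi35 on 430B.

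The last 3 involve the outlying arrays. The Dtx3l probe set had -0.50 ± 0.15 with them (adjusted p = 0.0863) and -0.44 without, where replicate 1 alone stands for curcumin-diet TNBS. That of Adar had -0.60 ± 0.20 with them and -0.44 without, and that of Ifi35 -0.51 ± 0.19 and -0.14. The second Parp14 probe set changed sign, from 1.05 ± 0.44 with them to -0.25 without. Without curcumin-diet TNBS replicate 1, 5 member probe sets of these 4 genes were called, against 9.67% of all.

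Markers of macrophages and neutrophils were lower beside these values, again with 0 past the threshold. The macrophage markers summed to 11595 to 13336 in standard-diet TNBS and 8770 to 10092 in curcumin-diet TNBS, and the neutrophil markers to 1406 to 2300 and 552 to 917, neither with overlap. At the gene level 9 of 10 and 4 of 4 lay below 0, with medians of -0.33 and -1.20. Of the dendritic cell markers 3 of 5 lay above 0, with a median of 0.01 (5 of 5 below 0 in the array-set fit, with a median of -0.21). Of the B and plasma cell markers 4 of 6 lay below 0, with a median of -0.16, and the tested marker of T and NK cells had -0.20. Pancreatic acinar markers lay below 0 in 8 of 8 genes here as well, with a median of -2.79. The part of these cells in the lower Ifi47, Tap1 and immunoproteasome values was not tested. The 2 comparisons that involve standard-diet TNBS share its 3 samples, so a low or high value there enters both.

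**Figure D4:**
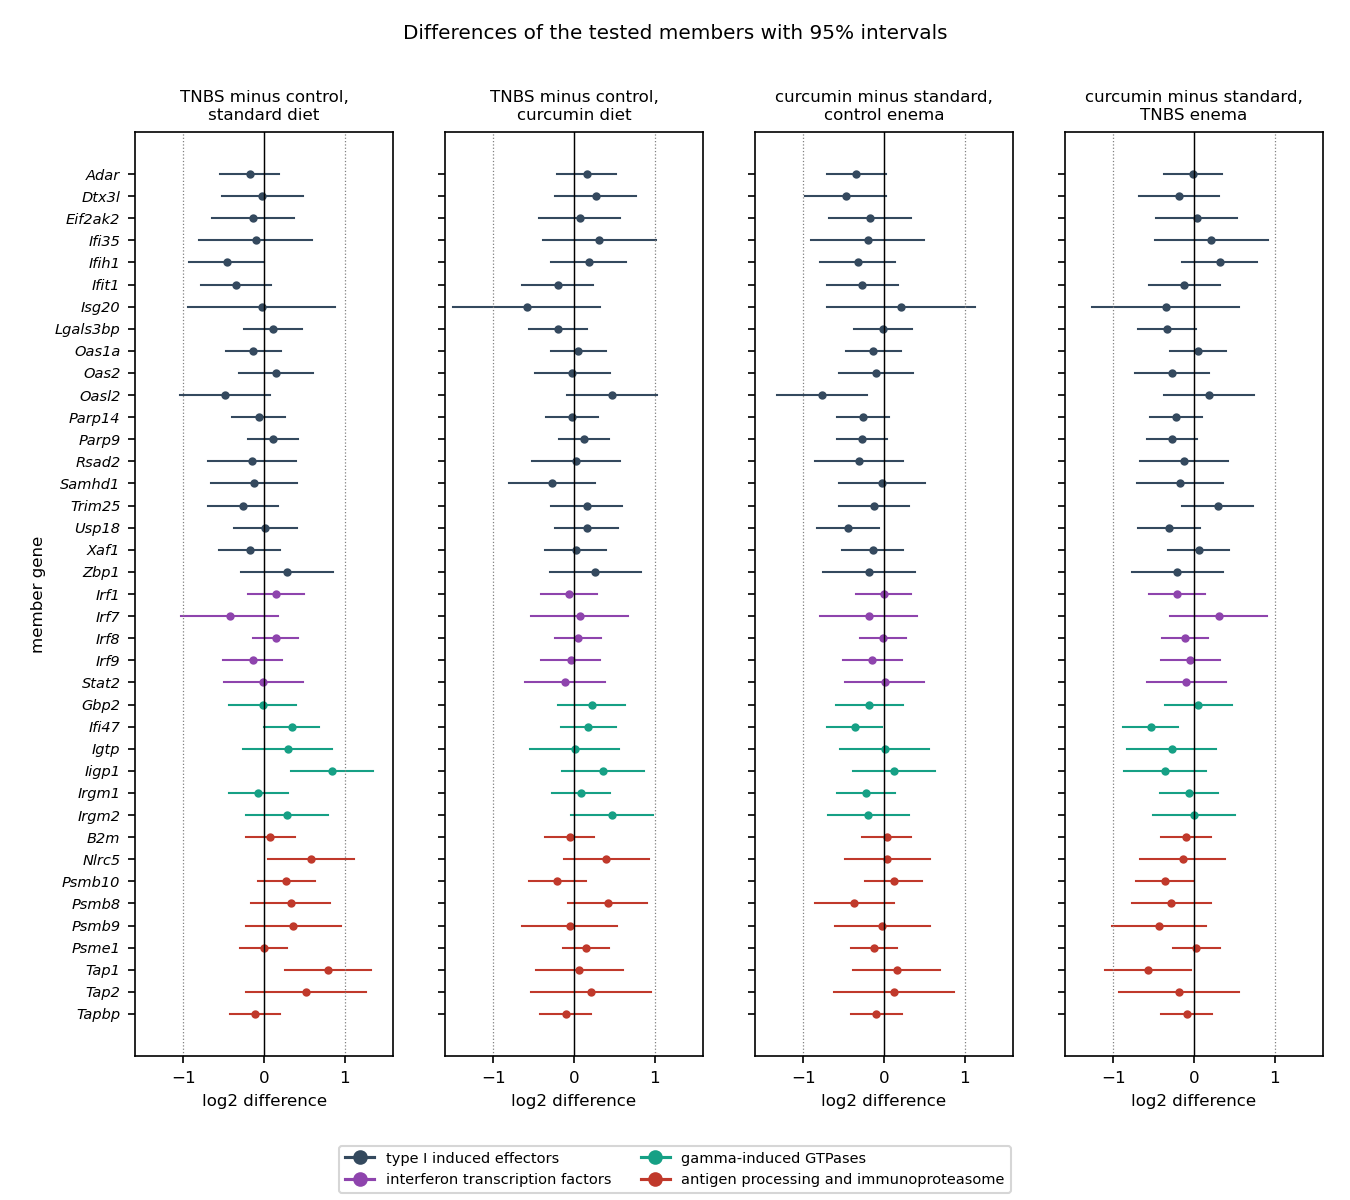
Log2 difference (points) and 95% interval (lines) of each of the 39 tested members from the limma fit, in the 4 contrasts of 2 groups; dotted lines mark 2-fold in either direction and colours the 4 lists. All points lie within the dotted lines, and the intervals of Iigp1 and Tap1 for TNBS on the standard diet lie above 0 and reach past 2-fold.

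The 2 diet comparisons share no array, so the sign of each member could be set side by side. The count that follows was chosen after the values were seen and has no test. Of 39 genes 20 stood lower on curcumin with both enemas, a share of 51.3% against 20.2% of all 12911 genes, and 0 stood higher with both, against 19.6%. Below 0 were 30 of 39 members with the control enema and 29 with TNBS, but 6473 and 6508 of all genes. With such splits many members would be lower in both even if the signs were unrelated. The count therefore does not show agreement gene by gene. By list they were 11 of 19 type I effectors, 3 of 5 transcription factors, 3 of 6 GTPases and 3 of 9 antigen-processing genes. Ifi47, Usp18 and Parp9 are examples, at -0.36 ± 0.16 and -0.54 ± 0.16, -0.44 ± 0.18 and -0.30 ± 0.18, and -0.28 ± 0.14 and -0.27 ± 0.14. The count of lower genes was 20 in the array-set fit and 17 to 22 with 1 sample left out. It was 14 with arrays centred on their median, where 16.7% of all genes were lower in both. The count of higher genes was 0 to 2 with 1 sample left out, 2 without standard-diet TNBS replicate 1, and 1 with array weights. The median over all members of the centred level was -0.05 to 0.14 in the 6 standard-diet samples and -0.19 to 0.04 in the 6 curcumin-diet samples, and the ranges overlap.

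The interaction asks whether the difference made by TNBS depended on the diet, as TNBS minus control on curcumin less the same on the standard diet. Of 58 probe sets 0 passed, against 0.0332% of all, and 4 had an unadjusted p under 0.05, against 13.5% (9.92% on 430A and 17.1% on 430B). The interval, taken from the spread between these samples, lay within 2-fold for 28 of 39 genes and reached 2-fold for the other 11. Oasl2, lower after TNBS on the standard diet and higher on curcumin, had 0.95 ± 0.36 (95% interval 0.16 to 1.74, adjusted p = 0.415). Ifih1 had 0.64 ± 0.30 (0.91 ± 0.22 in the array-set fit, adjusted p = 0.13). Tap1 had -0.72 ± 0.35 (95% interval -1.48 to 0.03, adjusted p = 0.519) and Psmb10 had -0.48 ± 0.23 (adjusted p = 0.519, or 0.0436 with array weights, where 4 members and 9.34% of all probe sets were called). Without curcumin-diet TNBS replicate 1, 2 members (Parp14 and Ifi35 on 430B) were called, against 5.17% of all. Trim25, a ubiquitin ligase of RNA sensing, had 0.42 ± 0.29, and Iigp1 -0.48 ± 0.33. A second Trim25 probe set went the other way, while the remaining tested probe set went the same way. In the second, mean signals in control and TNBS were 455 and 471 on the standard diet and 476 and 420 on curcumin. Of the antigen-processing genes 6 of 9 lay below 0, with a median of -0.18, and of the type I effectors 14 of 19 above, with a median of 0.18. In the array-set fit these medians were -0.04 and 0.11 (12 of 19 above), and with 1 sample left out they ran from -0.35 to -0.05 and from 0.05 to 0.23. The constitutive proteasome subunits lay below 0 in 8 of 11 genes, with a median of -0.28 (9 of 11 and -0.16 in the array-set fit). Class I molecules and loading factors lay below 0 in 5 of 6, with a median of -0.20 (4 of 6 and -0.09 in that fit). The second probe set of Gbp2, a guanylate-binding protein, had 1.28 ± 0.44 (adjusted p = 0.367), while the first had 0.24 ± 0.27; the name of the second marks it as one that may also bind other transcripts.

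Matches to GAAANNGAAA alone were set beside the values. Of the 31 tested genes with a window 12 hold it and 19 do not; 7 of those 19, Irf1 among them, hold TTCNNNGAA. The median difference of the 12 and of the 19 was -0.04 and -0.03 for TNBS on the standard diet, 0.06 and 0.05 for TNBS on curcumin, -0.18 and -0.12 for the diet with the control enema, -0.03 and -0.17 for the diet with TNBS, and 0.17 and 0.01 for the interaction. Igtp and Irgm2, whose windows are nearly the same, differed by 0.29 ± 0.25 and 0.28 ± 0.23 for TNBS on the standard diet and by 0.01 ± 0.25 and 0.47 ± 0.23 on curcumin, and the difference between the 2 genes was not tested. Psmb9, Tap1, Psmb8 and Tap2 lie next to each other in that order, and for TNBS on the standard diet their differences were 0.36 ± 0.27, 0.79 ± 0.25, 0.33 ± 0.23 and 0.52 ± 0.34.

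The 7 genes below the filter on the mean over all samples were not tested. Ifit2 had signals of 9.1 to 127, Ifit3 of 23.1 to 172 and Ube2l6 of 33.9 to 99.7 over the 12 samples. Mx1, an antiviral GTPase that many laboratory strains carry in a defective form, had 219, 137 and 143 in standard-diet control and 62.5 to 148 elsewhere, and Mx2 had 25 to 43.4. Bst2, which tethers viruses to cells, had 25.2 to 207, and Gbp3 95.2 to 338. In none of the 7 did a group lie apart from all other groups.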

How the data were processed

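Affymetrix 430A and 430B arrays measured 12 samples, 24 arrays in all. Per the labels' protocols, total RNA was extracted with Trizol and 10 ug was labelled. The deposited values are signal intensities on a linear scale; GCOS made them, per the submitters' processing notes (version not given in the sources used here). Depth does not apply to arrays: the 3 samples a group limit the precision.

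Signals were analysed as log2(signal + 16), so the differences of dim probe sets are understated. Probe sets above the 40th percentile of mean signal, 13575 on 430A and 13506 on 430B, were fitted with group means over all 12 samples in limma 3.58.1 (R 4.3.3; eBayes with a trend), with Benjamini-Hochberg adjustment within an array type and 5 contrasts. The code was tested on simulated data. Members and lists were chosen with earlier results of these data known. Named genes are the 5 with the smallest p in a contrast, the 3 with the largest difference of each list in the standard-diet TNBS and the TNBS diet comparison, and 18 genes set by name; any others were named after their values were seen. Symbols come from GEO's platform annotation, which can be old. Alternatives covered scaling, pseudocount, filter, array weights, the trend, the arrays fitted, the probe set rule, the array set and left-out samples.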

Additional observations from a re-analysis of the deposited data

How the results depend on the processing

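The counts of called member probe sets were 0 under every alternative but 2. With array weights they were 1 for TNBS on the standard diet, 2 for TNBS on curcumin, 11 for the diet with TNBS and 4 for the interaction. Without 1 sample they ranged from 0 to 2, from 0 to 5 and from 0 to 2 for the last 3 of these, and the calls came from leaving out curcumin-diet TNBS replicate 1, after which the outlying arrays alone stood for that group on 430B. The median over all members for TNBS on the standard diet was -0.0385 to 0.0758 with 1 sample left out, the highest without standard-diet control replicate 1, against -0.01 with all. Irf7 reversed in the diet comparison with TNBS, from 0.31 to -0.11 with array weights; the cause was not tested. Of the 864 values for named genes 856 kept their direction and their side of the threshold, and 7 passed it under array weights. Probe sets near background and 3 samples a group limit what can be seen. The count of genes lower on curcumin with both enemas, from 14 of 39 to 25 of 46, was added after seeing the data. No paired analysis was possible because the labels number the samples across the series and give no number shared between groups.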
